A study of Homo sapiens with 8 samples.

Results

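The 35 genes described here encode proteins that carry a cell through mitosis, from the cyclins that start it to the proteins that cut the daughter cells apart. They were chosen by symbol from the deposited table, which held 35 of the 35 among its 11530 genes, and 35 of the 35 were among the 11257 genes tested. RNA came from MonoMac 6, an established human line of acute monocytic leukaemia, so the libraries represent 1 line. The 4 treated libraries came from cells kept for 24 h in medium without serum that held human APRIL at 100 ng/mL. APRIL is the TNF family cytokine encoded by TNFSF13. The 4 control libraries came from the same line, also at 24 h, without APRIL. Both groups also received baseline cytokines that the series text does not name. Whether the control medium held serum is not stated in the labels, so APRIL and the absence of serum cannot be told apart in any value below. The columns of the table carry the group and no replicate number. Each library is therefore named by its group and its place among that group's columns (APRIL column 1, control column 1 and so on). Nothing in the labels says that they came from separate cultures, and every p-value measures only the spread between these libraries.

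Mitosis is driven by CDK1 bound to cyclin A or cyclin B, which is switched on by CDC25 phosphatases and helped by the kinases PLK1 and AURKA. The spindle checkpoint holds back the anaphase-promoting complex (APC/C), a ubiquitin ligase, until every kinetochore is attached, after which CDC20 and the APC/C send cyclin B for destruction. RNA of these genes is low in resting cells and accumulates in G2 and M phase, so in bulk RNA fewer cells in G2 and M and less RNA per such cell cannot be told apart. The genes are known to be controlled together through 2 promoter elements, the cell cycle genes homology region (CHR), which recruits the DREAM and MuvB complexes, and the CCAAT box, which binds NF-Y.

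The promoters show what these genes share beyond their function, and 4 are printed: of the members with a CHR match, the 2 with a negative and the 2 with a positive difference between APRIL and control that had the smallest p. The sequences are RefSeq's on GRCh38.p14 and run from 200 bases before the annotated start to 30 after it. They lie at chr10:128126394-128126623 on the minus strand, chr17:40417867-40418096 on the minus strand, chr1:43358781-43359010 on the plus strand and chr12:6851257-6851486 on the minus strand. Capitals mark a CHR match (TTTGAA or TTCGAA) or a CCAAT match, each on either strand, so TTCAAA and ATTGG are the same elements read on the other strand.
MKI67: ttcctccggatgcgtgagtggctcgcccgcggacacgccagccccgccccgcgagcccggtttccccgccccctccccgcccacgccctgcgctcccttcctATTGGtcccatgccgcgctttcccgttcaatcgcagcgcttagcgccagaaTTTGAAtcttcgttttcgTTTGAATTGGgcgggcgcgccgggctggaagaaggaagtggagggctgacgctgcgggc
TOP2A: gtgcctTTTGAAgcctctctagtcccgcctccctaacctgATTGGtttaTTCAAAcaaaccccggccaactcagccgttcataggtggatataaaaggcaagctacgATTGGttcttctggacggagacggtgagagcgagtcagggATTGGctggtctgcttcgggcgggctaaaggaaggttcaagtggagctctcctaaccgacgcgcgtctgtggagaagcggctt
CDC20: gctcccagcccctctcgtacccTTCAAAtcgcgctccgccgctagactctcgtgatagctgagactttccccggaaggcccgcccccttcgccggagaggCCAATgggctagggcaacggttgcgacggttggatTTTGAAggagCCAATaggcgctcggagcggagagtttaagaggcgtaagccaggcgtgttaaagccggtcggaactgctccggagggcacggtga
CDCA3: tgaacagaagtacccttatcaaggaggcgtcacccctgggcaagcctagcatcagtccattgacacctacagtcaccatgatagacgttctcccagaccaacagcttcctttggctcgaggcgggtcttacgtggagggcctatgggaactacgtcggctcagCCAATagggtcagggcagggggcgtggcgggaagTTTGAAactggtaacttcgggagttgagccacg
MKI67 had CHR matches whose first bases lay at -47 and -29 from the start and CCAAT matches at -98 and -24, the last of which shares a base with the CHR match before it. TOP2A had CHR matches at -194 and -151, farther from the start than the single match of CDCA3 at -3. CDC20 had CHR matches at -178 and -65 and CCAAT matches at -100 and -55.

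Promoters were listed for 30 of the 35 members. AURKA, BIRC5, TPX2, TTK and UBE2C had no entry. Over the window of 250 bases before to 50 after the start, 23 of the 30 members (76.7%) had a CHR match, against 16.4% of all 35116 listed promoters and 15.8% of the 8081 tested genes with a promoter. A CCAAT match was found in 26 of 30 members (86.7%), against 34.6% of all promoters and 43.6% of tested genes. Both motifs were found in 21 of 30 (70%), against 6.38% of promoters and 6.6% of tested genes. CCAAT occurred at 2 or more places in 18 of 30 members (60%), against 10.8% of promoters and 16.5% of tested genes. The matches did not divide the members by the sign of the difference between APRIL and control: a CHR match was found in 15 of 18 members with a negative and in 8 of 12 with a positive difference. A match describes letters in a window and is not a measured binding site.

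**Figure D1:**
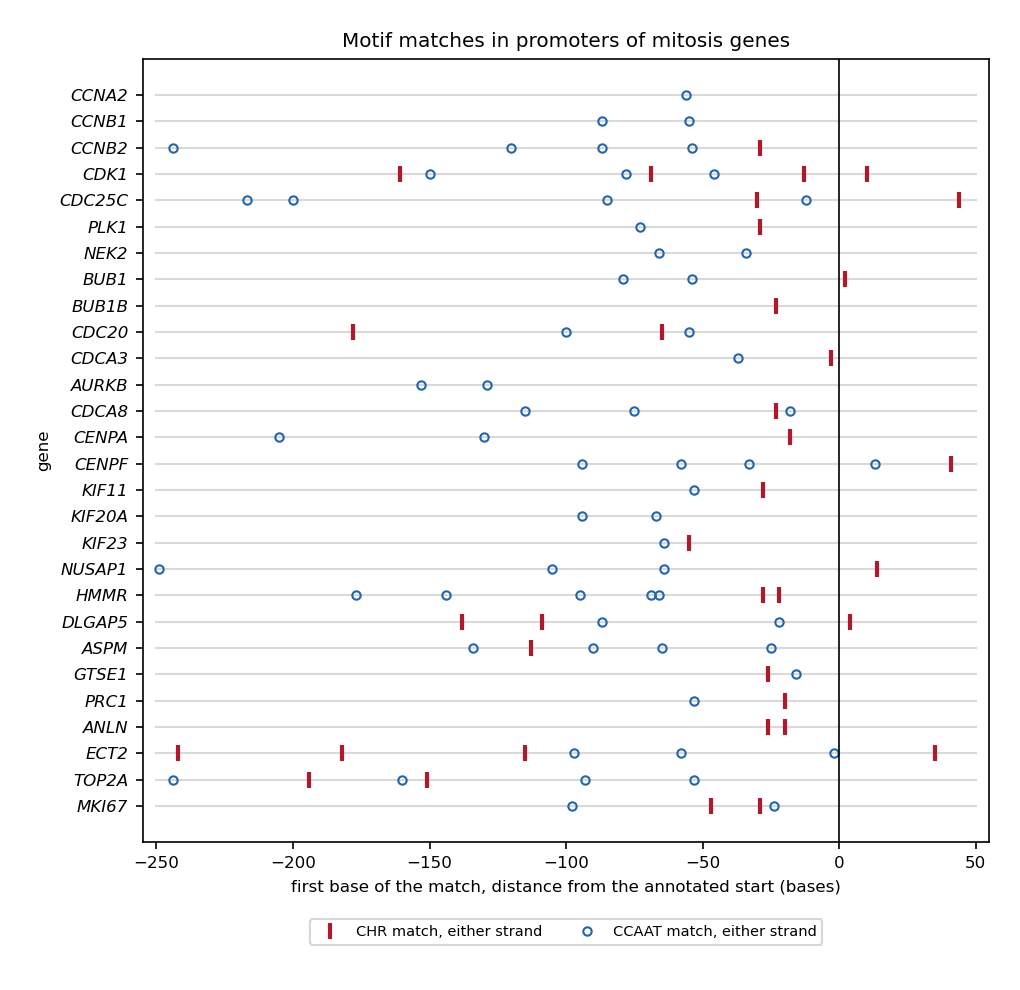
Each line is the promoter of a mitosis gene from 250 bases before to 50 after the annotated start (horizontal axis, distance in bases), red bars are CHR matches and blue circles CCAAT matches on either strand. The 28 members with a match are drawn, and for genes with several annotated promoters the matches of each are placed by the distance from its own start. Most matches lie just before the start, with a median of -28 for CHR and -76 for CCAAT.

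The whole reads behind the deposited values could be recovered for 11135 of 11530 genes (96.6%), and over these genes APRIL columns 1 to 4 held 2782883, 5215093, 907148 and 3100841 reads and the control columns 1347928 to 2894172. APRIL column 3 was the shallowest library. Among the 33 members with recovered reads (not BIRC5 and MKI67), the median member had 117 reads in APRIL column 3 and 200 to 860 in the others, and CDC25C had the fewest, 12 in APRIL column 3. There were 2 libraries that stood apart in their values: APRIL column 3 was the lowest or highest of the 8 libraries for 32.9% and 33.6% of all tested genes, and control column 1 for 25.7% and 26.3%. Of 10 monocyte markers 8 were listed (not CD68 and CD4), among them CD14, LYZ and CSF1R, at a mean of 3.66 to 3.95 in every library. Of 6 T and NK cell markers CD8A and NKG7 were listed, with means of 6.71 to 7.51. Of 5 B cell markers 4 were listed (not MS4A1), with means of 2.50 to 3.18. These means are over different genes, whose divisors are not stated, so they do not rank the cell types. No erythroid, fibroblast, epithelial or endothelial marker was listed.

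No mitosis gene passed the threshold between APRIL and control. By limma on the log2 values, 0 of 35 were higher and 0 of 35 lower at an adjusted p under 0.05, where the share over all 11257 genes was also 0%. At an unadjusted p under 0.05, 4 of 35 were lower (11.4%, against 5.69% of all genes) and 0 higher (against 6.25%). Voom on the recovered reads also called 0 of 33, with 4 lower (4.28% of all genes in that fit) and 1 higher (6.44% of all genes) at an unadjusted p under 0.05. The 4 APRIL values lay wholly below the 4 control values for 2 members (HMMR and PRC1, 5.71% against 4.19% of all genes) and wholly above for 1 (CDCA8, 2.86% against 3.62%). The difference was negative for 21 members and positive for 14, so 60% were negative against 50.7% of all genes. The median was -0.15 for the members and -0.01 for all genes. The standard error of a member's difference had a median of 0.16 log2 units.

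That count of 4 lower members (ASPM, CENPF, MKI67 and TOP2A) depended on single libraries. With APRIL column 1, 2, 3 or 4 left out it was 7, 9, 1 or 0, while 4.62%, 9.36%, 4.5% or 2.51% of all genes were lower by the same rule. With control column 1, 2, 3 or 4 left out it was 0, 1, 1 or 5, against 2.07%, 4.08%, 3.52% or 5.05% of all genes. The share over all genes thus moved with the library left out as well. In the authors' deposited table, other members had a p-value under 0.05: BUB1 (0.042), CDCA8 (0.0212), HMMR (0.0446) and TPX2 (0.034), with deposited folds of 0.874, 1.11, 0.823 and 0.85. The authors' deposited table gave MKI67 a p-value of 0.0945 and a fold of 0.651. The share of all genes with a deposited p-value under 0.05 is not given here. These 4 members are therefore not set against a background.

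The members did not move as a block. In APRIL column 3, 19 of the 35 had their lowest value of the 8 libraries and 11 their highest. Control column 1 held the highest value of 18 members and the lowest of 5. Averaged over the 35, the deviation from each gene's mean was 0.02, 0.03, -0.13 and -0.10 in the APRIL columns, and 0.16, 0.02, 0.00 and -0.01 in the control columns. Leaving out APRIL column 3 moved the difference of 23 of the 35 members by over 1.5 times or across 0, and leaving out control column 1 did so for 8. Each of the other libraries did so for 3 to 5 members. For 7 members, CDC25C, BUB1, CDCA8, TPX2, HMMR, DLGAP5 and ASPM, no single library did. The share of all genes moved by this rule is not given here, so these counts do not set the members apart. Of all tested genes, 32.9% had their lowest and 33.6% their highest value in APRIL column 3. For control column 1 these shares were 25.7% and 26.3%. The averages hide opposite deviations of different roles, which are described next in the order of the events of mitosis. Several roles held only short or only long transcripts, so role and transcript length cannot be told apart in their signs.

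**Figure D2:**
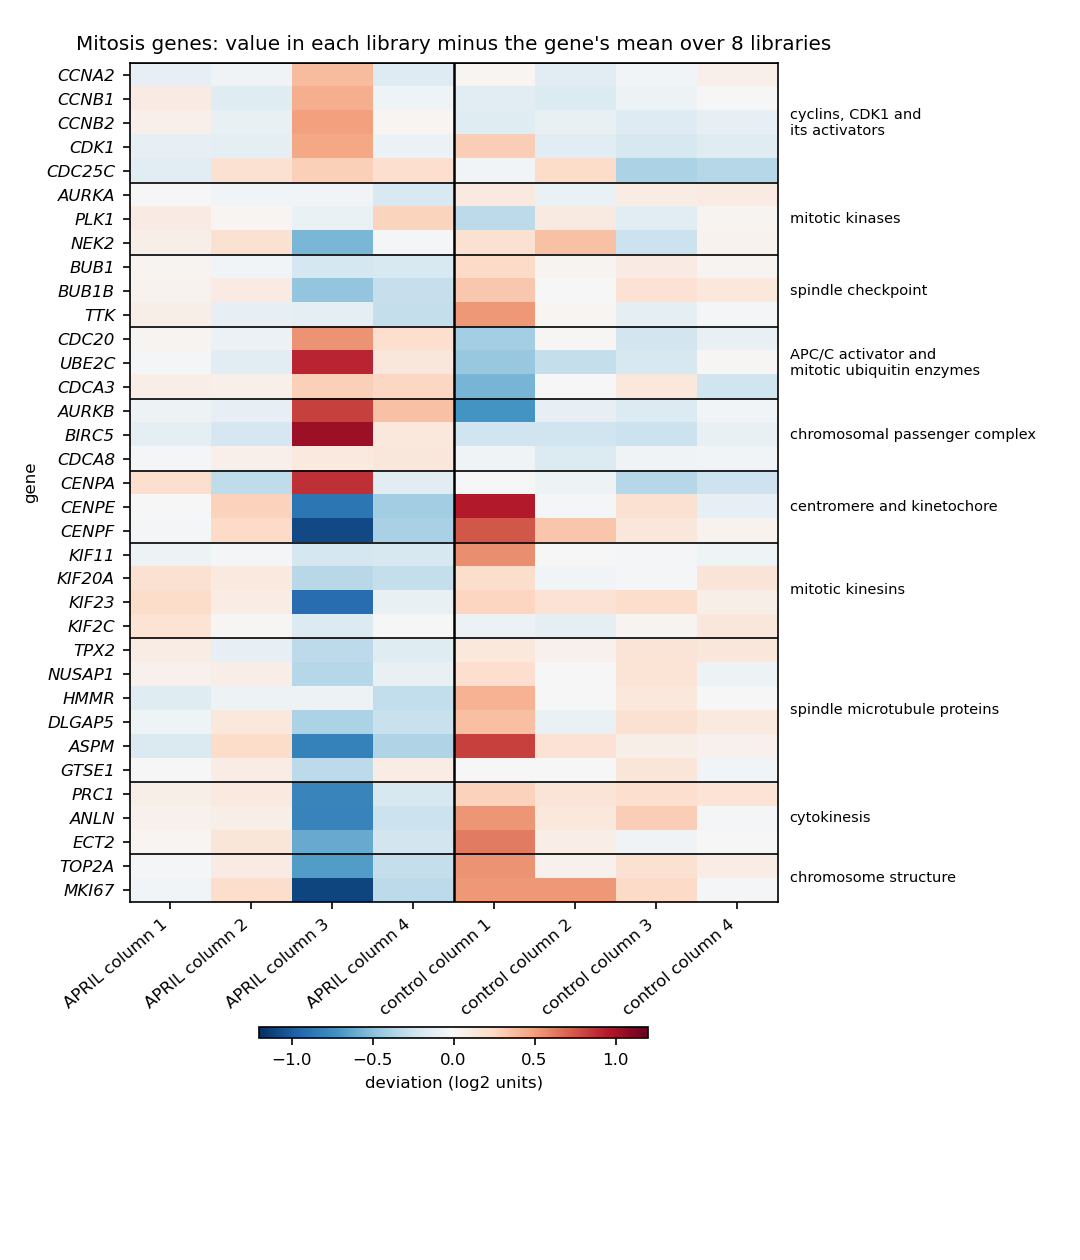
Colour gives the log2 value of each mitosis gene (rows, grouped by role) in each library (columns) minus the gene's mean over the 8 libraries, red above and blue below it. APRIL column 3 is red for the cyclins, the ubiquitin enzymes, AURKB, BIRC5 and CENPA and blue for most spindle, cytokinesis and chromosome genes, and control column 1 is the reverse for many of them.

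The cyclins, CDK1 and its activators had slightly higher means with APRIL, though not each of them without APRIL column 3. All 5 had a positive difference over the 8 libraries (median 0.17, 0.04 to 0.27, or a median of 0.05 without APRIL column 3). Of the 5, 0 had an unadjusted p under 0.05. CCNB2, a B-type cyclin, stood at 5.36, 5.21, 5.79 and 5.32 with APRIL (columns in order, here and below) and at 5.15, 5.21, 5.14 and 5.20 in control. The control values were within a narrow band (5.17 ± 0.03, SD, n = 4) and APRIL column 3 stood above all others, while APRIL column 2 overlapped with control. The difference was 0.25 ± 0.15 (standard error; limma adjusted p = 0.419), and 0.12 without APRIL column 3. CCNB1, the main cyclin of mitotic entry, differed by 0.17 ± 0.14, or 0.05 without APRIL column 3, and CDC25C, a phosphatase that activates CDK1, by 0.27 ± 0.18. CDK1 itself and CCNA2, the cyclin of S and G2 phase, gave 0.09 ± 0.18 and 0.04 ± 0.14, and both were negative without APRIL column 3, at -0.05 and -0.08. For each of the 5, APRIL column 3 was the highest library.

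The 3 mitotic kinases outside the checkpoint and passenger groups were divided. AURKA, which matures centrosomes and builds the spindle, stood at 10.13, 10.10, 10.10 and 9.95 with APRIL and at 10.25, 10.05, 10.22 and 10.23 in control. The groups overlapped through control column 2, and the difference was -0.12 ± 0.10 (limma adjusted p = 0.544), or -0.08 without APRIL column 4. PLK1, which acts from entry to cytokinesis, differed by 0.15 ± 0.14, or 0.08 without control column 1 and 0.09 without APRIL column 4. NEK2, which separates centrosomes, differed by -0.15 ± 0.20, or 0.01 without APRIL column 3 and -0.27 without control column 3.

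The checkpoint genes BUB1, BUB1B and TTK had negative differences (median -0.21), with 0 of 3 at an unadjusted p under 0.05. Other checkpoint genes, from the wider list of mitosis genes, were divided. MAD2L1, MAD1L1, BUB3 and TRIP13 had positive differences of 0.19, 0.26, 0.13 and 0.31. KNTC1, ZWILCH, ZW10 and SPDL1, listed under other roles, had negative ones of -0.43, -0.32, -0.17 and -0.34. All of these had a limma adjusted p of 0.400 or more, and they were named after their values were seen. BUB1B, which encodes the checkpoint protein BUBR1, stood at 9.05, 9.10, 8.53 and 8.73 in the APRIL columns and at 9.33, 9.0, 9.18 and 9.13 in control. APRIL columns 3 and 4 lay below every control library and the others overlapped with control. The difference was -0.31 ± 0.15 (limma adjusted p = 0.400), and -0.20 without APRIL column 3. The checkpoint kinases BUB1 and TTK differed by -0.19 ± 0.11 and -0.21 ± 0.16, and TTK by -0.08 without control column 1.

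The APC/C activator and ubiquitin group had 3 of 3 positive differences (median 0.35, or 0.23 without APRIL column 3), with 0 of 3 at an unadjusted p under 0.05. CDC20, the activator that the checkpoint blocks, stood at 5.96, 5.85, 6.46 and 6.13 with APRIL and at 5.52, 5.94, 5.70 and 5.83 in control. Control column 1 was the lowest and APRIL column 3 the highest, and only control column 2 reached into the APRIL range. The difference was 0.35 ± 0.16 (limma adjusted p = 0.400), and 0.23 without APRIL column 3. UBE2C, the ubiquitin-conjugating enzyme of the APC/C, differed by 0.46 ± 0.22, and by 0.23 without APRIL column 3, where its value was 9.61 against 8.24 to 8.83 in the other 7 libraries. CDCA3, an adaptor linked to the destruction of the CDK1 inhibitor WEE1, differed by 0.34 ± 0.19, or 0.21 without control column 1.

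The chromosomal passenger complex corrects faulty attachments and guides cytokinesis, and its 3 members had positive differences (median 0.42, or 0.15 without APRIL column 3), with 0 of 3 at an unadjusted p under 0.05. AURKB, its kinase, stood at 3.03, 2.99, 3.91 and 3.44 with APRIL and at 2.37, 2.99, 2.93 and 3.06 in control. APRIL columns 3 and 4 lay above control, columns 1 and 2 did not, and control column 1 was the lowest of all. Its difference, 0.51 ± 0.24 (limma adjusted p = 0.400), was the highest of the 35 members, and 0.32 without APRIL column 3. CDCA8, the subunit borealin, stood at 5.95, 6.04, 6.09 and 6.11 with APRIL and at 5.93, 5.81, 5.93 and 5.94 in control. It was the 1 member whose APRIL values all exceeded the control values, by a small margin, with a difference of 0.14 ± 0.11 (limma adjusted p = 0.501). BIRC5, which encodes survivin, differed by 0.42 ± 0.24, and by 0.15 without APRIL column 3, which stood at 11.97 against 10.68 to 11.07 elsewhere.

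The centromere and kinetochore genes held the lowest member of the list beside a positive one. CENPF, a large kinetochore protein that builds up in G2, stood at 7.15, 7.39, 6.08 and 6.77 with APRIL and at 7.91, 7.50, 7.30 and 7.21 in control. APRIL columns 1, 3 and 4 lay below all control libraries, and APRIL column 2 overlapped with them. The difference was -0.63 ± 0.27 (unadjusted p = 0.042, limma adjusted p = 0.400), and -0.37 without APRIL column 3. CENPE, a kinesin that moves chromosomes to the spindle equator, differed by -0.51 ± 0.28, or -0.30 without APRIL column 3 and -0.27 without control column 1. CENPA, the histone H3 variant of the centromere, differed by 0.33 ± 0.24, or 0.09 without APRIL column 3.

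Of the 4 mitotic kinesins, 3 had a negative difference (median -0.20, or -0.09 without APRIL column 3) and 0 an unadjusted p under 0.05. KIF11, the motor that pushes spindle poles apart, stood at 7.96, 8.01, 7.81 and 7.83 with APRIL and at 8.58, 8.03, 8.01 and 7.97 in control. Control column 1 stood apart from the other 3 control libraries, which lay within the upper part of the APRIL range or just above it. The difference was -0.24 ± 0.15 (limma adjusted p = 0.432), and -0.10 without control column 1. KIF23 and KIF20A, motors of the central spindle, differed by -0.35 ± 0.22 and -0.16 ± 0.16, and by -0.11 and -0.08 without APRIL column 3. KIF2C, which takes microtubules apart at centromeres, gave 0.01 ± 0.11.

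Spindle microtubule proteins had 6 of 6 negative differences (median -0.26, -0.56 to -0.07), with 1 of 6 at an unadjusted p under 0.05. ASPM, a spindle pole protein, stood at 7.69, 8.09, 7.06 and 7.51 with APRIL and at 8.69, 8.04, 7.94 and 7.92 in control. APRIL column 2 overlapped with control and the other 3 lay below it. The difference was -0.56 ± 0.24 (unadjusted p = 0.0414, limma adjusted p = 0.400), and -0.38 without APRIL column 3. HMMR, a microtubule-binding protein also known as the hyaluronan receptor RHAMM, stood at 6.47, 6.55, 6.55 and 6.32 with APRIL and at 7.03, 6.62, 6.74 and 6.62 in control. Its groups did not overlap, APRIL column 3 was not apart from the other APRIL libraries, and the difference was -0.28 ± 0.13 (limma adjusted p = 0.400), or -0.31 without that column. TPX2, which activates AURKA on the spindle, DLGAP5, which stabilises kinetochore fibres, and NUSAP1, which bundles microtubules, differed by -0.23 ± 0.11, -0.29 ± 0.15 and -0.15 ± 0.14, and NUSAP1 by -0.06 without APRIL column 3. GTSE1, a microtubule-binding protein of G2 and M phase, gave -0.07 ± 0.13, and 0.03 without APRIL column 3.

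The 3 cytokinesis genes had negative differences (median -0.40, or -0.20 without APRIL column 3), with 0 of 3 at an unadjusted p under 0.05. PRC1, which bundles the central spindle, stood at 9.0, 9.04, 8.13 and 8.73 with APRIL and at 9.20, 9.08, 9.13 and 9.09 in control. The control libraries were close together (9.13 ± 0.06, SD, n = 4) and lay above each APRIL library, by little for columns 1 and 2. The difference was -0.40 ± 0.19 (limma adjusted p = 0.400), and -0.20 without APRIL column 3. ANLN, the scaffold of the contractile ring, stood at 4.66, 4.68, 3.81 and 4.35 with APRIL and at 5.14, 4.74, 4.91 and 4.59 in control. Only control column 4 reached into its APRIL range, and the difference was -0.47 ± 0.21, or -0.28 without APRIL column 3. ECT2, which activates RhoA at the cleavage site, differed by -0.33 ± 0.20, or -0.18 without APRIL column 3 and -0.17 without control column 1.

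Both genes of chromosome structure had an unadjusted p under 0.05. TOP2A, the topoisomerase that untangles sister chromatids, stood at 7.38, 7.50, 6.73 and 7.11 with APRIL and at 7.94, 7.45, 7.58 and 7.49 in control. APRIL column 2 overlapped with control, and APRIL column 3 and control column 1 marked the ends of the range. The difference was -0.44 ± 0.19 (unadjusted p = 0.04, limma adjusted p = 0.400), or -0.29 without APRIL column 3. MKI67, which encodes the proliferation marker Ki-67 that coats mitotic chromosomes, stood at 9.98, 10.22, 8.91 and 9.70 with APRIL and at 10.53, 10.53, 10.24 and 9.99 in control. Its groups overlapped through APRIL column 2 and control column 4. The difference was -0.62 ± 0.26 (unadjusted p = 0.0367, limma adjusted p = 0.400), or -0.36 without APRIL column 3.

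**Figure D3:**
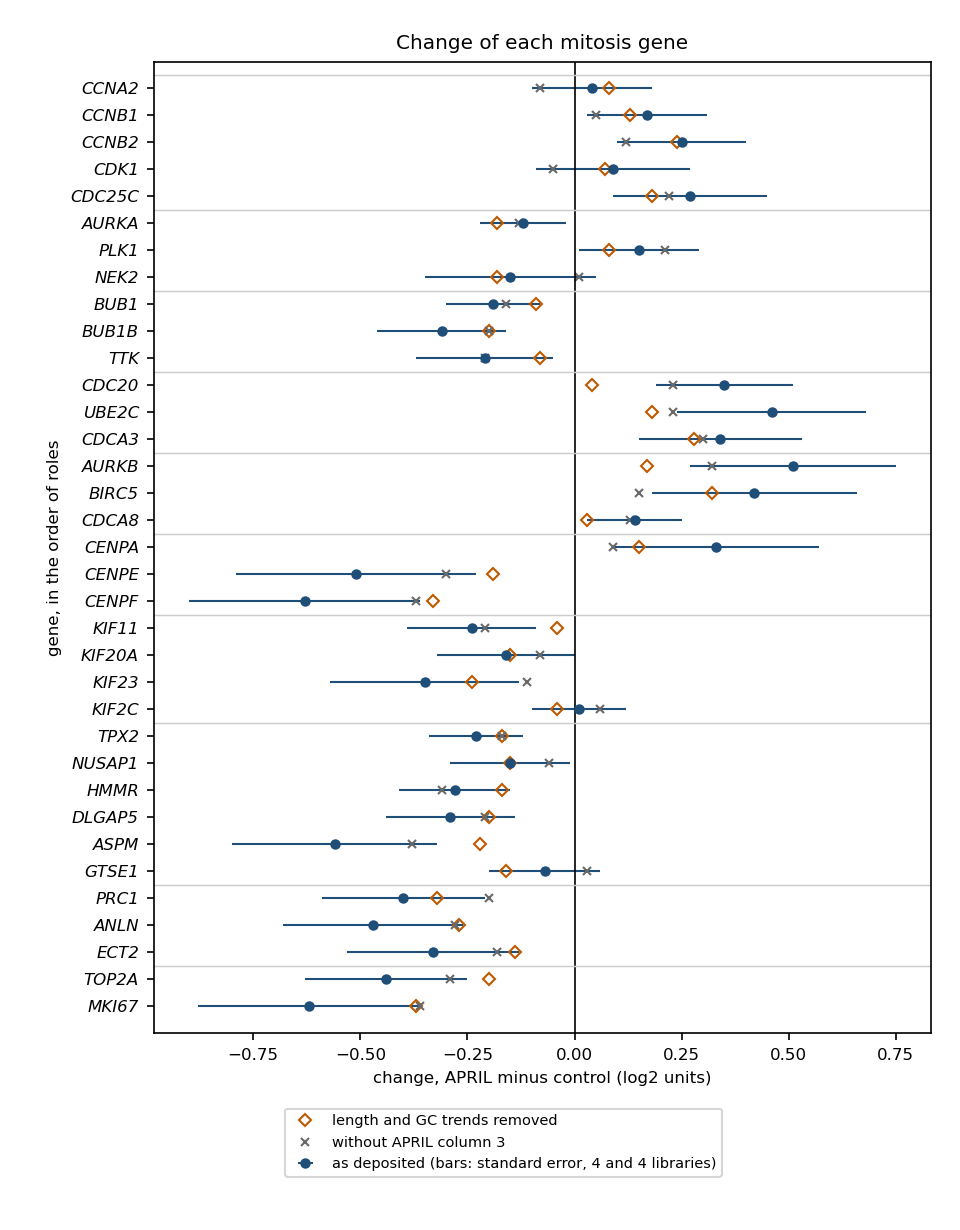
Filled points give the difference of each mitosis gene, APRIL minus control in log2 units (horizontal axis), with its limma standard error as a bar. Open diamonds give it once the dependence on transcript length and GC content has been taken out of each library, and crosses without APRIL column 3. Values run from -0.63 for CENPF to 0.51 for AURKB, and most diamonds and crosses lie nearer to 0 than the filled points.

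The order of these differences followed the length of the transcript, a property the choice of genes did not use. The longest members, MKI67 (12678 bases), ASPM (10887), CENPF (10307) and CENPE (8612), had 4 of the 4 most negative differences. The shortest, UBE2C (914) and AURKB (1254), had the 2 highest. Over the 35 members, which share the 8 libraries and are not independent, Spearman's rho between difference and length was -0.85, and 0.64 between difference and GC content. Over 10791 tested genes with a length these were -0.54 and 0.51, so the trend was not limited to mitosis genes.

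A split at the members' median length of 3102 bases shows the same order. Of the 17 longer members 16 had a negative difference (median -0.33), all but PLK1, and of the 18 others 5 had one (median 0.16). Every cyclin, ubiquitin and passenger member was among the 18 others, and every checkpoint, cytokinesis and chromosome member among the 17 longer. For these groups role and length cannot be told apart. Among all genes split at that length, 67.4% of the longer and 26.3% of the shorter were negative, with medians of -0.12 and 0.18. By library, the mean deviation of the longer minus that of the shorter members was -0.85 in APRIL column 3 and 0.48 in control column 1. It was 0.03, 0.12 and -0.22 in APRIL columns 1, 2 and 4 and 0.16, 0.19 and 0.09 in control columns 2 to 4. The same difference over all genes was -0.60 in APRIL column 3 and 0.30 in control column 1. The order by length was also seen without these libraries. Spearman's rho between difference and length over the members was -0.79 without APRIL column 3 and -0.75 without both. Over all genes these were -0.37 and -0.32. The rho between difference and GC content in the same 2 fits was 0.74 and 0.57 over the members. Over all genes it was 0.64 and 0.41, larger in size than that for length. Length and GC content were related to each other, with a rho of -0.41 over the members.

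**Figure D4:**
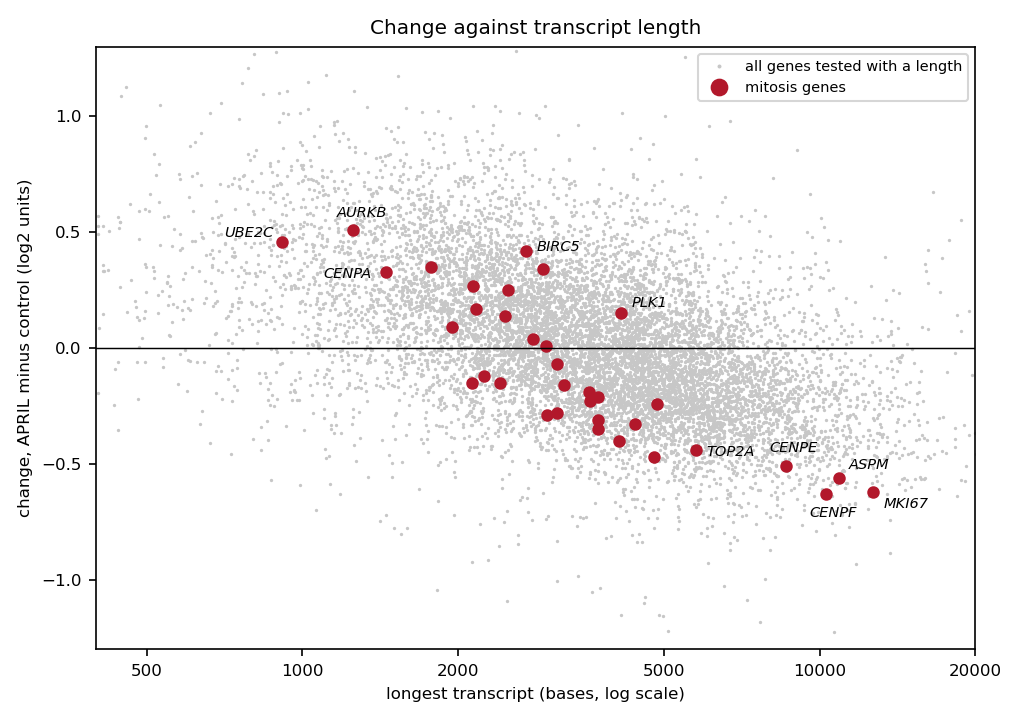
Each point is a gene, placed by the length of its longest transcript (horizontal axis, bases, log scale) and its difference, APRIL minus control in log2 units (vertical axis). Mitosis genes are red and all tested genes with a length grey, within the limits of the axes. The red points descend from UBE2C at 0.46 to MKI67 at -0.62.

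Trends in length and GC content were then fitted over all genes in each library and subtracted. The differences of the members were mostly smaller, and of the 35 only KIF2C took the other sign (-0.04). They then ran from -0.37 (MKI67) to 0.32 (BIRC5), with 22 of 35 negative and a median of -0.14, against 52.5% negative and -0.01 over all genes. The middle of the distribution narrowed: the interquartile range went from 0.48 to 0.28 in the members. In all genes it went from 0.43 (11257 genes) to 0.28 (the 10791 with a length). Leaving out APRIL column 3, with no trend removed, gave ranges of 0.32 in the members and 0.31 in all genes. With the trends removed, CENPF was at -0.33, ASPM at -0.22 and TOP2A at -0.20, AURKB at 0.17, CDC20 at 0.04 and CCNB2 at 0.24. At an unadjusted p under 0.05 there were 2 lower members, HMMR and MKI67 (5.71%, against 4.24% of all genes), and 1 higher, CCNB2 (against 3.99%), and none of the 35 passed the adjusted threshold in limma.

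The removal did not take away the order by length within the list. Spearman's rho between difference and length over the 35 members was then -0.68, against -0.03 over all genes. For GC content rho was 0.45, against 0.00 over all genes. The longer members still stood at -0.36 in APRIL column 3 and 0.20 in control column 1. The shorter members were at 0.02 and -0.05 in these 2 libraries. The cyclin, ubiquitin and passenger groups kept 11 of 11 positive differences, and the checkpoint, spindle, cytokinesis and chromosome groups 14 of 14 negative ones. These groups were pooled because their signs were uniform as deposited, and the positive ones held only shorter members. In the remaining groups, 2 of 3 kinases, 2 of 3 centromere genes and 4 of 4 kinesins were negative. Over all genes 52.5% were negative. Role and length cannot be told apart in these counts. Without APRIL column 3 and control column 1, the median of the 35 was -0.03 and 20 were negative. In that fit 0 members had an unadjusted p under 0.05, against 3.47% of all genes lower and 4.04% higher.

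**Figure D5:**
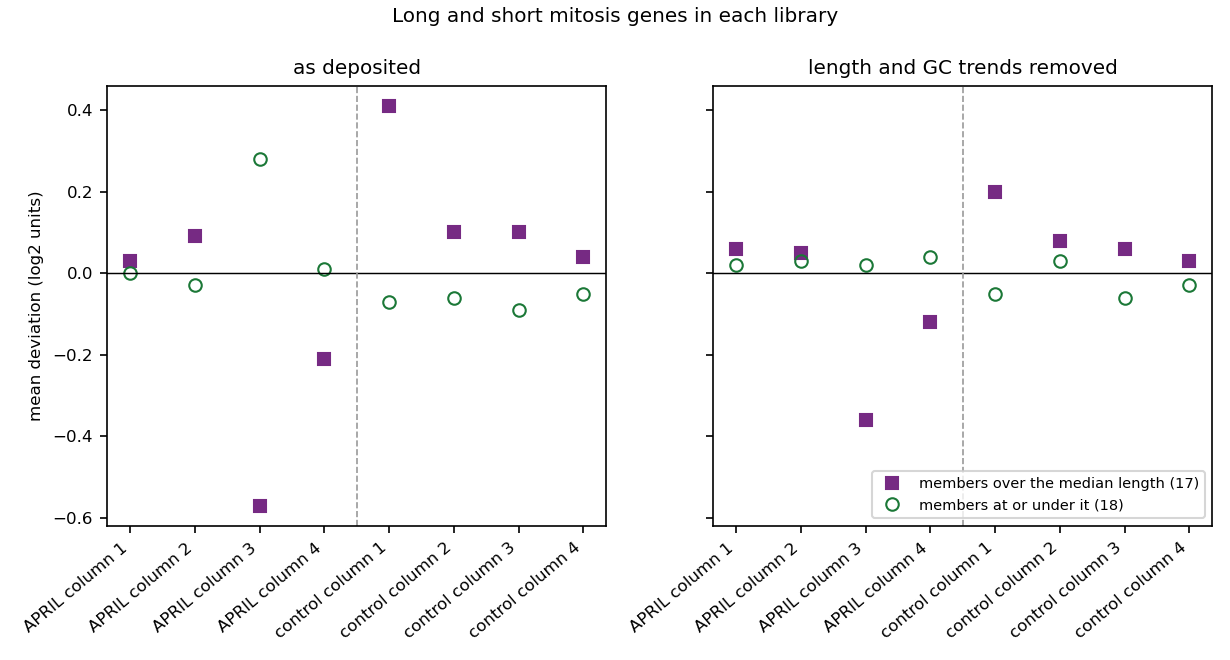
Points give the mean deviation in log2 units (vertical axis) of the 17 members longer than 3102 bases and of the 18 others in each library, as deposited and after subtraction of the length and GC trends. As deposited, the longer members lie at -0.57 in APRIL column 3 and at 0.41 in control column 1, and after removal at -0.36 and 0.20.

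Other genes of the mitotic machinery were also tested. Of 124 further mitosis genes, all in the table, limma called 0 higher and 0 lower. At an unadjusted p under 0.05, 16 were lower (12.9%, against 5.69% of all genes) and 5 higher (4.03%, against 6.25%), and the median difference was -0.11. This median was -0.06 without APRIL column 3 and -0.03 without control column 1 as well, against -0.001 and -0.003 over all genes. With the trends removed it was -0.08, against -0.01 over all genes. Differences were negative for 7 of 8 condensin genes (median -0.27), 9 of 11 cohesin and separation genes (-0.32) and 7 of 9 further kinesins (-0.22). They were also negative for 11 of 16 outer kinetochore genes (-0.11) and 11 of 16 further spindle and midbody genes (-0.18). Without APRIL column 3 these medians were, in the order given, -0.17, -0.24, -0.10, -0.13 and -0.14. Differences were positive for 11 of 16 inner kinetochore genes (0.04), 10 of 17 APC/C subunits (0.06), 7 of 12 entry regulators (0.07) and 4 of 5 checkpoint and passenger partners (0.19). Without APRIL column 3 the medians of the inner kinetochore, APC/C and entry groups were -0.04, 0.00 and 0.02. Among the checkpoint and passenger partners, the sign was opposite to that of BUB1, BUB1B and TTK except in the passenger subunit INCENP (-0.14). Without APRIL column 3 their median was 0.06, and 0.03 without control column 1 as well. With the trends removed, 2 of 5 were negative and the median was 0.27. The checkpoint genes KNTC1, ZWILCH, ZW10 and SPDL1, counted in other groups, had negative differences.

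The smallest p among the lower genes of this wider list belonged to KIF14, a midbody kinesin, at 4.67, 4.93, 3.91 and 4.43 with APRIL and 5.51, 5.03, 5.10 and 4.98 in control. The groups did not overlap, and the difference was -0.67 ± 0.22 (limma adjusted p = 0.400), or -0.39 with the trends removed. KIF2A, a microtubule-depolymerising kinesin, and NFYA, a subunit of the factor that binds CCAAT boxes, differed by -0.48 ± 0.17 and -0.35 ± 0.13, also without overlap. Without APRIL column 3, KIF14, KIF2A and NFYA were at -0.48, -0.36 and -0.26. Of the 124 genes, 12 had APRIL values wholly below control (9.68%, against 4.19% of all genes) and 2 wholly above (1.61%, against 3.62%). The smallest p among the higher genes belonged to CENPM, a small inner kinetochore protein, at 0.78 ± 0.29, ANAPC11, the RING subunit of the APC/C, at 1.05 ± 0.40, and PMF1, of the outer kinetochore, at 0.54 ± 0.23. Without APRIL column 3 these 3 were at 0.49, 0.60 and 0.31. The groups of ANAPC11 did not overlap, by a small margin (10.60 with APRIL against 10.58 in control), and those of CENPM and PMF1 did. Of the 14 transcription factor genes of the wider list, 9 had a negative difference (median -0.12).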

How the data were processed

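RNA of MonoMac 6 cells was measured in 8 libraries. Per the labels' protocols, libraries were made with the TruSeq RNA v2 kit, which does not mark strand. Per the submitters' processing notes, TopHat2 2.0.13, bcl2fastq and hg19 were used. A read counter, annotation and gene filter were not given in the sources used here. Per the file headers, the authors deposited log2 values per library scaled by a TMM factor (-4.96 to 15.4), a p-value and a linear fold. The divisor of each gene is not stated, so levels are not compared between genes.

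The test took in each gene with 4 or more libraries at a log2 value of at least 0, and used limma 3.58.1 in R 4.3.3 (trend and robust, group as the only term, two-sided, Benjamini-Hochberg over all genes, threshold 0.05). The floor left out 273 genes. The fit was tested on simulated data. Whole reads were recovered as log2 of reads plus 0.5, per gene divisor and library constant, with a chance expectation under 0.001, and for 0 of 500 genes with moved constants. The recovery was also tested on simulated data. The reads entered voom, with library sizes scaled by the deposited TMM factors.

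Pairs of libraries within a group differed beyond sampling noise in the recovered reads (chi-square per degree of freedom 1.5 to 19). Transcript lengths are those of the longest GENCODE v29 transcript, matched by symbol for 10791 tested genes, and trends were removed per library with splines of 4 degrees of freedom in log length and in GC content. Summaries were made in Python 3.11.15 with scipy 1.17.1, and plots with matplotlib 3.10.9.

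The members, their roles and the wider list were chosen with earlier results of these data known. Values in every library are given for members with an unadjusted p under 0.05 or groups without overlap and for the smallest p of each role, and, of the wider list, the 3 smallest p in each direction are named. Motif shares are given without a test.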

Additional observations from a re-analysis of the deposited data

Results flagged for a closer look

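In groups of 4 libraries, a library was looked at again when its gap to the nearest other library over the group's range exceeded Dixon's 95% critical value, which chance gives in about 1 of 20 groups. Of 50 groups looked at, 9 met this. Among single genes, control column 2 was low for AURKA (10.05, others 10.22 to 10.25) and for CDCA8 (5.81, others 5.93 to 5.94). Control column 1 was high for KIF11 (8.58, others 7.97 to 8.03) and for ASPM (8.69, others 7.92 to 8.04). In mean deviations, control column 1 was high for the spindle checkpoint genes (0.36, others 0.02 to 0.06) and for all 35 mitosis genes (0.16, others -0.01 to 0.02). The same library was low for the APC/C activator and ubiquitin enzymes (-0.47, others -0.10 to -0.09). APRIL column 3 was high for the cyclins, CDK1 and its activators (0.41, others -0.04 to -0.01) and low for the 3 mitotic kinases (-0.22, others 0.03 to 0.06).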

How the results depend on the processing

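No mitosis gene and none of the 124 further mitosis genes was called by limma in any of the alternatives run: 3 choices of filter and variance model, 2 other normalizations, quality weights, voom, removal of length and GC trends, each library left out, and APRIL column 3 and control column 1 left out together. Over all genes, quality weights gave 3 higher and 1 lower call. The 14 members and 6 further genes named by the rule kept their sign in each of these fits that held them (CENPM was not in the stricter filter, MKI67 not in voom). The count of lower members at an unadjusted p under 0.05 was 4 as deposited, 1 with quality weights (HMMR), 2 with trends removed, 0 without APRIL column 3 and control column 1, and 0 to 9 when each library was left out. Of all genes 5.69%, 8.74%, 4.24%, 3.47% and 2.07% to 9.36% were lower in these fits. The count of higher members, 0 as deposited, was 1 with voom, 1 with trends removed and 0 to 4 when each library was left out, where all genes gave 6.25%, 6.44%, 3.99% and 2.43% to 10.6%. The median of the 35 members was -0.009 with quality weights, -0.033 without the 2 libraries and -0.22 to -0.08 when each library was left out. With quality weights the median of the mitotic kinases was 0.051, of the passenger complex 0.10 and of the kinesins 0.011. The same weights gave -0.094 for the centromere genes (-0.51 as deposited), -0.218 for chromosome structure (-0.53) and -0.143 for cytokinesis (-0.40). They gave -0.134 for spindle proteins (-0.26), -0.075 for the checkpoint (-0.21), 0.174 for the ubiquitin group (0.35) and 0.100 for the cyclin group (0.17). Without the 2 libraries the median was 0.041 for the mitotic kinases and -0.068 for the centromere genes. Leaving out each library gave -0.14 to 0.005 for the kinases. Their causes were not tested. Other medians and counts moved by less than the spread between libraries or less than 1.5 times. TTTGAA alone was found in 22 of 30 members' promoters. Depth limits the low genes in APRIL column 3, where CDC25C had 12 reads. No paired analysis was possible because the columns carry no replicate numbers.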
